A study of Mus musculus with 2 samples.

Results

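The muscle miRNAs, often called myomiRs, are a set of 10 genes chosen by name: the miR-1, miR-133 and miR-206 loci (Mir1a-1, Mir1a-2, Mir1b, Mir133a-1, Mir133a-2, Mir133b and Mir206) and the hairpins within myosin genes (Mir208a, Mir208b and Mir499). All 10 were found among the 2202 miRNA genes counted by microRNA sequencing of adrenal total RNA. The mice were of the hybrid strain B6CASTF1/J. The labels gave 1 group, females aged 2 months, with 2 biological replicates and no treatment. The tissue labels number different females, but the donor label is the same for both samples, and the spread between them may be technical. The design held no second condition, and the comparisons were the level of each muscle miRNA and its difference between the replicates.

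Muscle miRNAs are made in skeletal and heart muscle cells under the control of muscle transcription factors, and they dampen genes of growth and of other lineages as muscle cells differentiate. miR-1 and miR-133 are transcribed together from paired loci and are abundant in both kinds of muscle. miR-206 is a skeletal muscle miRNA, rich in slow fibres and regenerating muscle, and is transcribed with miR-133b. miR-208a, miR-208b and miR-499 lie in introns of the myosin heavy chain genes Myh6, Myh7 and Myh7b and take part in the choice between slow and fast myosins. The adrenal gland consists of hormone-producing cortex and medulla and holds no striated muscle of its own.

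The mature sequences that bear on the counts are printed with the seed, bases 2 to 8, in capitals, because the seed sets which messages a miRNA pairs with. They come from RefSeq on GRCm38.p6, where 6 of the 10 genes had a mature entry. The mature miRNAs of Mir1a-2, Mir1b, Mir133a-1 and Mir133a-2 are named only.
miR-206-3p: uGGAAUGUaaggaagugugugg
miR-133b-3p: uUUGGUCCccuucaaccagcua
miR-208a-3p: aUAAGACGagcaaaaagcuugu
miR-208b-3p: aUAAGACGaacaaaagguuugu
miR-499-5p: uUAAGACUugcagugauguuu
The miR-208 sequences share their seed and are identical at 19 of 22 positions. Counted from 1 at the 5′ end, the differences from miR-208a-3p to miR-208b-3p are G10A, A16G and C18U. The seed of miR-499-5p matches theirs at 6 of 7 positions and differs by G8U. miR-1 is known to share the seed of miR-206, and the first 10 bases of miR-206-3p occur in the hairpins of Mir1a-1 and Mir1a-2. In the RefSeq table the seed of miR-206-3p also occurs in miR-6349 and miR-6382, whose genes Mir6349 and Mir6382 had 0 counts in both libraries.

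Gene counts, the reads assigned to miRNA genes on the gene's strand, totalled 2839732 in replicate 1 and 2280028 in replicate 2. A single count was thus worth 0.352 and 0.439 counts per 1000000 gene counts (CPM). The neuroendocrine miRNA Mir375 stood at 39421 and 37780 CPM, a ratio of 1.04 between the libraries.

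Of the 10 muscle miRNA genes, Mir206, Mir499, Mir208b and Mir208a had 13 to 1517 counts in replicate 1 and 0 to 5 in replicate 2, while the other 6 had at most 5 counts in either library. In replicate 1 the 10 genes held 2707 counts, or 0.0953% of gene counts (exact Clopper-Pearson 95% interval 0.0918 to 0.0990). In replicate 2 they held 15 counts, or 0.000658% (0.000368 to 0.00109). The summed CPM was 145-fold higher in replicate 1 (exact 95% interval 87.7 to 259). These intervals cover counting error only, and in bulk tissue fewer cells of a type and less RNA per cell cannot be told apart. Of the 10 genes, 4 reached 10 counts in replicate 1 and 0 did so in replicate 2.

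**Figure D1:**
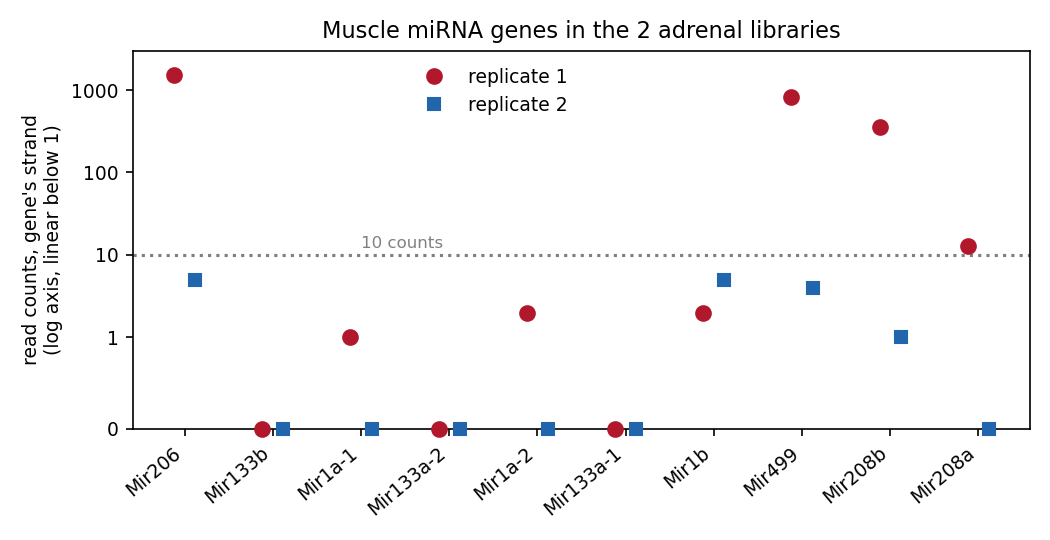
Read counts on the gene's strand (vertical axis, logarithmic above 1 and linear below) for the 10 muscle miRNA genes, with replicate 1 as circles and replicate 2 as squares; the dotted line marks 10 counts. Mir206, Mir499, Mir208b and Mir208a lie above the line in replicate 1, and every point of replicate 2 lies at 5 counts or fewer.

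Among the genes of the miR-1/206 and miR-133 groups, Mir206 carried nearly all of the counts in replicate 1, while in replicate 2 Mir206 and Mir1b had 5 counts each. Mir206 (ENSMUSG00000065559.1; mm10 chromosome 1, 20679010 to 20679082, plus strand) lies in the noncoding gene Gm28653, exonic in 1 of its transcripts and intronic in another. It had 1517 counts in replicate 1 and 5 in replicate 2, or 534 and 2.19 CPM. It ranked 107 among the 657 genes with a count in replicate 1 and 405 among the 637 in replicate 2. The ratio of replicate 1 over replicate 2 was 244 (exact 95% interval 104 to 751), and the adjusted p of the exact binomial test was below the smallest value that the software can store. Replicate 1 was the high library, and Mir206 reached the minimum for testing through that library alone.

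Mir133b, which makes a relative of miR-133a, lies 3686 bases downstream of Mir206 (chromosome 1, 20682769 to 20682887, plus strand) and is exonic in both transcripts of Gm28653 that overlap it. It had 0 counts in both libraries, which allows up to 3 counts, or 1.06 CPM in replicate 1 and 1.32 CPM in replicate 2. So the hairpins of this locus had very unequal counts in replicate 1, with 1517 for Mir206 and 0 for Mir133b. Reads that also align to Mir133a-1 or Mir133a-2 are in no gene's count, so this 0 does not give the level of miR-133b.

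The paired miR-1 and miR-133a loci had at most 2 counts per gene and library. On chromosome 2, Mir1a-1 (180389048 to 180389124, plus strand) had 1 count in replicate 1 and 0 in replicate 2. Its partner Mir133a-2 (180398379 to 180398482, plus strand), 9254 bases away, had 0 in both. Neither of these genes overlaps another annotated transcript. On chromosome 18, Mir133a-1 (10782909 to 10782976, minus strand) had 0 counts in both libraries. Mir1a-2 (10785481 to 10785552, minus strand) had 2 counts in replicate 1 and 0 in replicate 2. Both are intronic in Mir133a-1hg and lie on the other strand from the ubiquitin ligase gene Mib1. No fold is given for these genes, since their counts are at or under the limit of 3 that a count of 0 allows.

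Mir1b was the only member with a higher count in replicate 2, by a difference within counting error. Its gene (chromosome 18, 10785446 to 10785567, plus strand) covers Mir1a-2 on the opposite strand, within an intron of Mib1. It had 2 counts in replicate 1 and 5 in replicate 2, or 0.704 and 2.19 CPM. The ratio of replicate 1 over replicate 2 was 0.321 (exact 95% interval 0.0306 to 1.96), which includes 1 and lies wholly under the intervals of Mir206, Mir499 and Mir208b. Mir1b and Mir206 each made up 33.3% of the 15 muscle counts of replicate 2 (Clopper-Pearson 11.8 to 61.6). Without Mir1b the summed CPM was 217-fold higher in replicate 1 (118 to 453).

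The myosin-intron miRNAs followed the direction of Mir206. Mir499 (ENSMUSG00000076312.1; chromosome 2, 155622880 to 155622958, plus strand) is intronic in Myh7b and had 818 counts in replicate 1 and 4 in replicate 2, or 288 and 1.75 CPM. Its ratio was 164 (exact 95% interval 63.9 to 604; exact binomial test, adjusted p = 5.20e-200). Replicate 1 was the high library here as well, and Mir499 ranked 135 in it. Mir499 reached the minimum for testing through that library alone, so its adjusted p adds no support.

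Mir208b (ENSMUSG00000077928.1; chromosome 14, 54975700 to 54975776, minus strand) is intronic in Myh7, the slow and beta-cardiac myosin gene. It had 354 counts in replicate 1 and 1 in replicate 2, or 125 and 0.439 CPM. Its ratio was 284 (exact 95% interval 50.7 to 11258; exact binomial test, adjusted p = 3.42e-88), with a wide interval because it rests on 1 count in replicate 2. Mir208b also reached the minimum for testing through replicate 1 alone, so its adjusted p adds no support. The intervals of Mir206, Mir499 and Mir208b overlap, so their ratios could not be ranked.

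Mir208a (chromosome 14, 54949060 to 54949142, minus strand) is intronic in Myh6, the alpha-cardiac myosin gene, 26557 bases from Mir208b. It had 13 counts in replicate 1 and 0 in replicate 2, or 4.58 and 0 CPM. Against 3 counts in replicate 2 it was at least 3.48-fold higher in replicate 1. Its mean count was under 10, so it was not tested among all genes. With no filter on low counts it passed (exact binomial test, adjusted p = 0.00376), while Mir1b (0.495), Mir1a-2 (0.730) and Mir1a-1 did not. In that setting 4 of 7 members and 76 of all 739 genes (10.3%) were called. All counts of Mir208a came from replicate 1, so it entered that setting through replicate 1 alone and its adjusted p adds no support.

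Within replicate 1 the 4 members with at least 10 counts could be put in order, while Mir1a-1, Mir1a-2 and Mir1b, with 1 or 2 counts, could not be told apart. The mature miRNAs of these 4 members are 21 or 22 bases long, so no correction for length was made. The order is one of counts and not of mature miRNA levels, and the shares leave out reads aligned to several places. Mir206 made up 56.0% of the muscle counts (Clopper-Pearson 54.1 to 57.9), Mir499 30.2% (28.5 to 32.0), Mir208b 13.1% (11.8 to 14.4) and Mir208a 0.480% (0.256 to 0.820). The count of Mir206 was 1.85 times that of Mir499 (exact 95% interval 1.70 to 2.02), and that of Mir499 was 2.31 times that of Mir208b (2.04 to 2.63). Mir208b, from the slow myosin gene, had 27.2 times the counts of Mir208a, from the alpha-cardiac myosin gene (15.7 to 51.7). In replicate 2, with 5, 4, 1 and 0 counts, no neighbours in this order could be told apart: Mir206 over Mir499 was 1.25 (0.269 to 6.30).

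The 6 members with the fewest counts in replicate 1 were those whose hairpins share long stretches with hairpins at other loci. Reads that align to several places are in no gene's count, and they numbered 94.2 per 100 gene counts in replicate 1 and 96.2 in replicate 2. Mir133a-1 and Mir133a-2 share a run of 31 bases with each other, and Mir1a-1 shares 28 bases with Mir1a-2 and, on the opposite strand, with Mir1b. The first 21 of the 22 bases of miR-133b-3p, printed in full with the other mature sequences, also occur in Mir133a-1 and Mir133a-2. By comparison, the longest run shared with a hairpin at another locus was 13 bases for Mir206 and Mir499 and 14 for Mir208a and Mir208b. The 6 members with a shared run of at least 20 bases held 5 counts in each library. The 4 others held 2702 counts in replicate 1 and 10 in replicate 2. Among all 2202 genes, 49.4% have such a shared run, and 87.3% of those had 0 counts in both libraries, against 46.1% of the genes without. Genes with such a run still held 411079 counts in replicate 1 and 343157 in replicate 2, among them Mir378a with 138651 and 129232. The run was searched over the whole hairpin and can lie outside the mature miRNA. Since reads aligned to several places are in no gene's count, these counts do not give the levels of mature miR-1, miR-133a and miR-133b. How many of those reads came from these miRNAs was not tested.

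**Figure D2:**
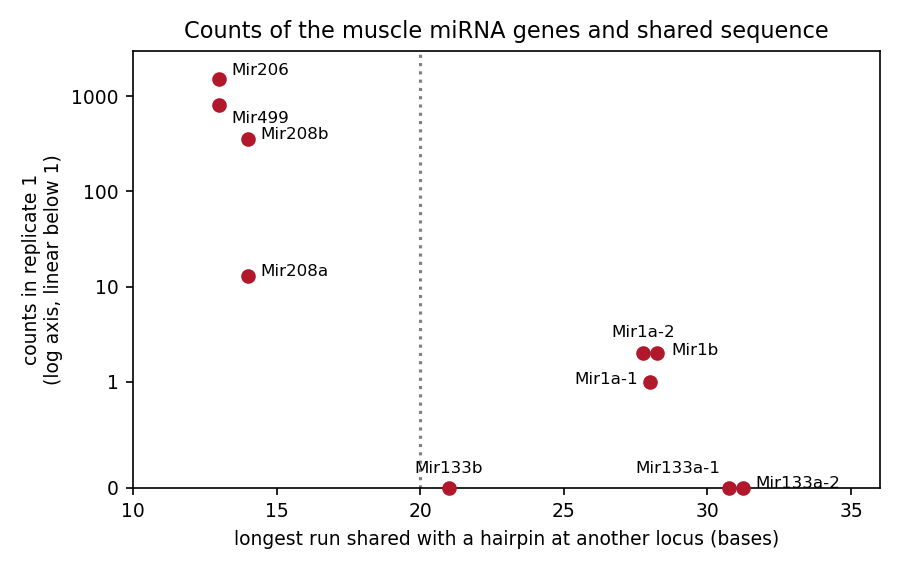
Counts in replicate 1 (vertical axis, logarithmic above 1 and linear below) against the longest run of bases that each muscle miRNA hairpin shares with a hairpin at another locus; points at equal values are set slightly apart sideways, and the dotted line marks 20 bases. The 4 hairpins at 13 or 14 bases have 13 to 1517 counts, and the 6 hairpins at 21 to 31 bases have 0 to 2.

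The difference between the replicates was then set against that of all miRNA genes. Each gene with a mean count of at least 10 was tested on its counts, given the library totals, by a two-sided exact binomial test, which compares these 2 libraries and not animals or conditions. A gene was called at an adjusted p under 0.05 and at least 2-fold. Of 369 genes tested, 69 were called (18.7%), with 37 higher in replicate 1 (10%) and 32 higher in replicate 2 (8.67%). Among the muscle miRNAs 3 were tested and 3 were called, all higher in replicate 1. Mir206, Mir499 and Mir208b reached the mean count through replicate 1 alone, so they had to differ, and the other 7 members were not tested. The median log2 ratio over all 369 genes was -0.07. With median-of-ratios scaling, which moved the median of all genes by 0.16, 45 genes were higher in replicate 1 and 24 in replicate 2 (65.2% against 53.6% of the calls higher in replicate 1), and the same 3 members were called.

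**Figure D3:**
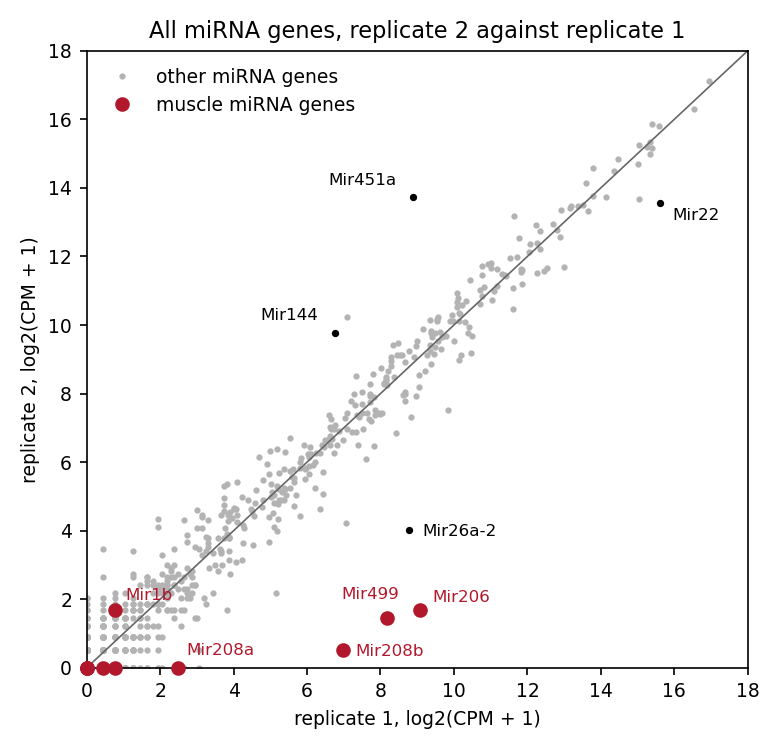
log2(CPM + 1) of every miRNA gene in replicate 2 (vertical) against replicate 1 (horizontal), with the 10 muscle miRNA genes as large points and the line of equality drawn. Mir206, Mir499 and Mir208b lie far below the line, while Mir1b lies just above it and the erythroid Mir451a and Mir144 lie far above it.

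The 5 genes outside the set with the highest ratios of replicate 1 over replicate 2 are given as those most like Mir206, Mir499 and Mir208b, a likeness that rests on 2 libraries. Mir452 had 21 and 0 counts, a ratio of 5.62 if set against 3 counts in replicate 2. The exact 95% interval of the Mir452 ratio began at 4.18 and had no upper bound. Mir26a-2 had 1253 and 35 counts (ratio 28.7, exact 95% interval 20.6 to 41.5), and Mir201 had 21 and 1 (16.9, 2.71 to 697), an interval that overlaps those of the muscle miRNAs. Mir200b had 99 and 8 counts (9.94, 4.85 to 23.7) and Mir223 had 377 and 40 (7.57, 5.45 to 10.8). The mature miRNA of Mir26a-2 is also made by Mir26a-1, and reads common to both genes are not in either count.

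A list of miRNAs that take part in muscle growth or metabolism but are made in many tissues showed smaller differences. Of its 37 names, 34 were in the tables and 30 were tested. Of these, 6 were higher in replicate 1, 0 were higher in replicate 2 and 24 were not called, with a median log2 ratio of 0.31 against -0.07 over all tested genes. Over all tested genes 10% were called higher in replicate 1 and 8.67% higher in replicate 2. Mir22 had 50215 CPM in replicate 1 and 12041 in replicate 2, a ratio of 4.17 (exact 95% interval 4.12 to 4.22). Mir195a had 1124 and 501 CPM (ratio 2.24), and the others called were Mir26a-2, Mir26a-1, Mir24-2 and Mir128-1, whose mature miRNAs are also made by another gene. Mir378a, from the coactivator gene Ppargc1b, had 48825 and 56680 CPM (ratio 0.861), and Mir23a had 22688 and 29588 CPM (0.767). Neither met the 2-fold rule. Mir486, a miRNA of muscle and red cells, had 187 and 133 counts, a ratio of 1.13 (0.899 to 1.42).

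Markers of other cells that the samples could hold were compared in the same way. Over all 369 tested genes 18.7% were called, so 0 called in lists this small does not set them apart. Smooth muscle miRNAs did not follow striated muscle, with 2.22% of gene counts in replicate 1 and 2.44% in replicate 2. Of 2 tested, 0 were called. Mir143 stood at 21039 and 23108 CPM and Mir145a at 1125 and 1292 CPM, while Mir145b had 1 count in each library. Fibroblast miRNAs held 0.102% and 0.113% (0 of 3 called), led by Mir214 at 999 and 1111 CPM, with Mir199b at 35 and 29 counts and Mir199a-2 at 11 and 12. The endothelial list held 4.32% and 5.95% (0 of 1 called), nearly all from Mir126a, with Mir126b at 14 and 5 counts. The neuroendocrine list held 4.28% and 4.01% (0 of 4 called), with Mir7b at 3101 and 2146 CPM and Mir7-1 at 213 and 146 CPM after Mir375. Liver-type Mir122 held 0.372% and 0.236% and was not called.

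Mir451a and Mir144 of the erythroid list moved opposite to the muscle miRNAs, and the list held 0.0643% in replicate 1 and 1.45% in replicate 2. Mir451a had 1333 and 30910 counts and Mir144 had 305 and 1990, and these 2 of 3 were called higher in replicate 2. The remaining gene, Mir486, did not move this way, with 187 and 133 counts and a ratio of 1.13 (0.899 to 1.42). The shares over all tested genes were 10% called higher in replicate 1 and 8.67% higher in replicate 2. Leukocyte miRNAs held 0.133% and 0.105%, with Mir223 called higher in replicate 1 and Mir150, Mir155 and Mir142 not called. These shares, from 3779 and 2396 counts, cover 4 of the 5 leukocyte names, since Mir146a was not found under that name. A gene named Mir146, left out of these shares, had 3849 and 2229 counts (1355 and 978 CPM) and was not called. Fat miRNAs held 0.306% and 0.381%, with Mir193b and Mir365-1 of 5 called higher in replicate 2 and Mir455 (2525 and 2899 CPM) and Mir196a-2 (163 and 165 CPM) not called. Kidney and gut epithelium miRNAs held 0.0213% and 0.0147%, with the neighbouring hairpins Mir200b, Mir429 and Mir200a of 8 called higher in replicate 1. Mir194-2 (115 and 85 counts), Mir204 (120 and 73) and Mir200c (110 and 77) were not called. Skin and squamous epithelium miRNAs held 0.117% and 0.0556%. Mir203 of that list was called higher in replicate 1, at 1166 and 554 CPM, and Mir205, its other gene, had 5 and 6 counts. All 6 neuron genes, the miR-124 and miR-9 loci, had 0 counts in both libraries, and each shares at least 20 bases with hairpins at other loci. Such stretches also mark Mir199b, Mir199a-2, Mir7-1, Mir194-2, Mir196a-2, Mir365-1, Mir23a and Mir378a, whose counts are uncertain for that reason. The part of these lists in the difference of the muscle miRNAs was not tested.

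**Figure D4:**
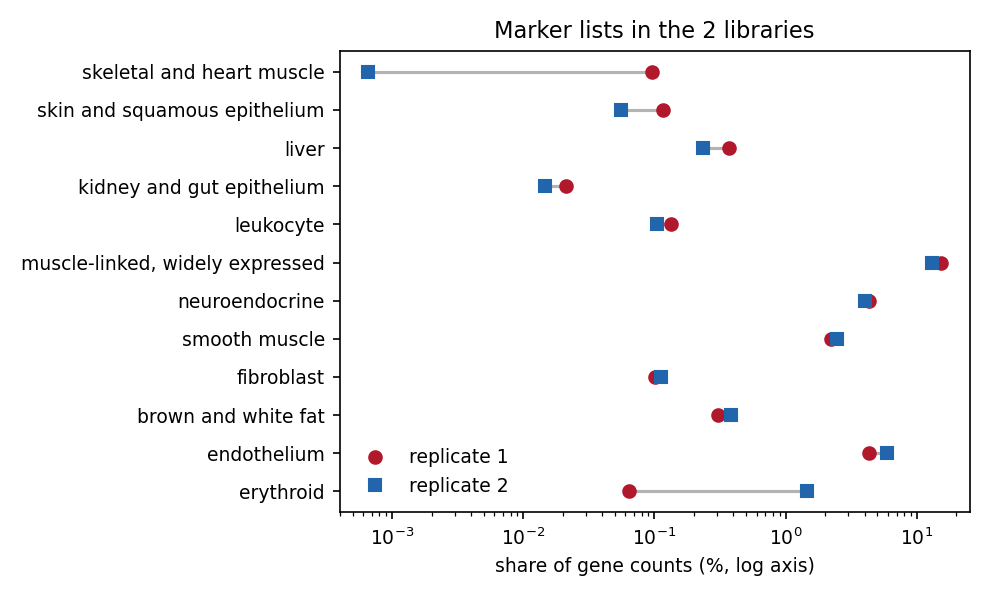
Share of gene counts (horizontal, logarithmic) of each marker list in replicate 1 (circles) and replicate 2 (squares), ordered by the ratio between them; the neuron list, at 0 counts, is left out. The skeletal and heart muscle list spans 0.000658% to 0.0953%, the widest gap drawn, and the erythroid list spans 0.0643% to 1.45% in the other direction.

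**Figure D5:**
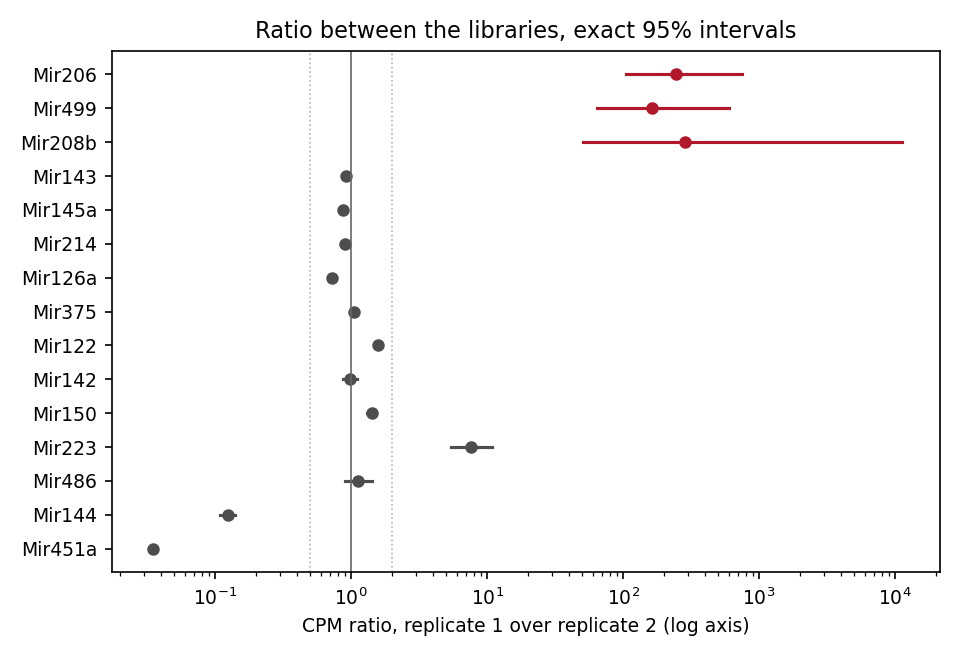
CPM ratio of replicate 1 over replicate 2 (horizontal, logarithmic) with exact 95% intervals for the 3 tested muscle miRNAs and for 12 marker genes of other cells; the solid line marks equality and the dotted lines 2-fold. The muscle intervals begin at 50.7 or above, and of the other genes drawn Mir223, Mir144 and Mir451a lie beyond 2-fold. The called markers Mir200b, Mir429, Mir200a, Mir203, Mir193b and Mir365-1 also lie beyond 2-fold and are not drawn.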

How the data were processed

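The deposited values were raw read counts per miRNA gene, not normalized, in 1 table per sample with columns for unstranded, sense and antisense counts. Per the file headers and the text deposited with them, reads were placed on mm10 with GENCODE M21 genes. An aligner or counter is not given in the sources used here. The strand column with the larger total was used. The 4 rows that name no gene (69.4% and 73.7% of reads in replicates 1 and 2) stayed out of library sizes and tests. All 2202 identifiers matched GENCODE M21.

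Counts were scaled to 1000000 per library (CPM) and compared by exact binomial tests with Benjamini-Hochberg adjustment (scipy 1.17.1). TMM factors came from edgeR 4.0.16. An exact test over the 2 samples cannot give a two-sided p under 0.5, and none was run. Longest shared runs were searched over 2202 GENCODE hairpins, on both strands, leaving out overlapping loci. On simulated data over the 369 genes of this comparison, the rule found 99 of 100 genes changed 4-fold. It found 7 of 100 changed 1.5-fold and 0 of 169 left as they were. The simulated counts held counting error only, so these numbers do not cover spread between samples.

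The members and lists were chosen with earlier results of these data known. Named beside the members were the 5 genes with the highest ratio and, of each list, up to 3 of the most abundant genes and every gene called. Alternatives covered scaling, filters, counting column, denominators and leaving out a replicate.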

Additional observations from a re-analysis of the deposited data

Results flagged for a closer look

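Mir1a-2 had 5 counts on the strand opposite to the gene in replicate 2, above the 3 that a count of 0 allows. Mir1b, which covers it on that strand, had the same number of sense counts, 5, and with counting that ignores strand both genes had 0 counts.

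Reads aligned to several places, which belong to no gene in these tables, numbered 2673681 in replicate 1 and 2193599 in replicate 2.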

How the results depend on the processing

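Mir206, Mir499 and Mir208b were called higher in replicate 1 under all 6 alternative settings of scaling, filter and counting column. Wherever a minimum mean count applied, they reached it through replicate 1 alone, so these calls had to follow and add no support. Their log2 ratios ranged over 7.87 to 8.09, 7.30 to 7.52 and 8.10 to 8.32 across the scalings and counting columns. The number of members called was 3 of 3 tested, and 4 of 7 with no filter. That setting added Mir208a, whose counts all came from replicate 1, so its call adds no support either. With no filter 76 of all 739 genes were called (10.3%). The mean CPM of each gene rests on the library that is kept: Mir206 (268) was at 2.19 without replicate 1 and 534 without replicate 2, Mir499 (145) at 1.75 and 288, and Mir208b (62.5) at 0.439 and 125. With unstranded counts the muscle share of replicate 1 was 0.108%, and with all reads as the denominator it was 0.0292% in replicate 1 and 0.000173% in replicate 2. With at least 1 count in both libraries 4 members were detected in both in place of 0, and over the leave-one-out values the number of detected members was 0 without replicate 1 and 4 without replicate 2. With the minimum mean count raised to 100, 33 genes were called in place of 69, with fewer genes tested (234 in place of 369). The summed ratio ranged over 145 to 217, the highest without Mir1b, chosen after seeing the data. No paired analysis was possible because the design has 1 group. Ratios rest on 5 counts or fewer in replicate 2, which sets the width of their intervals.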
